A study of Mus musculus with 4 samples.

Results

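The CC chemokine genes of mouse chromosome 11 were described in dermal white adipose tissue (dWAT), the fat layer around the lower ends of the hair follicles. The 10 genes, of 22913 listed, were taken by symbol from the listed identifiers. Ccl2, Ccl7, Ccl8, Ccl11 and Ccl12 formed the MCP and eotaxin subgroup. Its products other than Ccl8 mainly attract monocytes and eosinophils, while mouse Ccl8 acts through another receptor. Ccl3, Ccl4, Ccl5, Ccl6 and Ccl9 formed the MIP subgroup, named after the macrophage inflammatory proteins. Ccl1 lies between the subgroups on the same chromosome and was treated as another CC ligand.

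The study sequenced dWAT microdissected from C57BL/6 mice, with 1 library per group: OTD (old mice, telogen), YTD (young mice, telogen), OAD (old mice, anagen) and YAD (young mice, anagen). Old mice were 18 months and young mice 2 months of age by the sample titles and protocol. The age field of the labels conflicts with this for YTD (18 months there) and OAD (2 months there), and the titles were followed. Anagen, the growth phase of the hair cycle, had been induced by plucking the hair, so anagen and depilation cannot be told apart, while telogen is the resting phase. The study's methods give several mice per group, and whether their tissue was pooled into the library is not stated in them. No group has a second library, so the spread between replicates is unknown, no test was made, and each comparison is between single libraries. Values are FPKM, the fragments of a gene scaled by the length of its transcript and by the mapped fragments in the library. The depth, estimated from the lowest FPKM, was about 18500000 fragments in OTD and 17400000 in YTD, and 22000000 in OAD and 23500000 in YAD. From these estimates each value was given a 95% counting interval, which covers counting error only and not the spread between mice. Mitochondrially encoded genes made up 52.7% (OTD) and 44.7% (YTD) of all FPKM in telogen and 18.3% (OAD) and 14.4% (YAD) in anagen. Skeletal muscle markers held 1.51% to 7.34% of it. Hair follicle keratins held 0.0166% and 0.0306% of it in the telogen libraries against 2.44% in each anagen library. Fabp4 was the highest of the adipocyte markers in each library, followed by Adipoq in the mean over the 4 libraries, and the list summed to between 1248 and 4485 FPKM, so the labelled tissue carried its defining genes in every library. The skeletal muscle list summed to more than the adipocyte list in each library, with between 10506 and 91430 FPKM.

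Chemokines are small secreted proteins that guide leukocytes along a gradient through receptors on the cell surface. The members of the CC class arose largely by gene duplication, and many of them remain side by side on the chromosome. Ccl2, Ccl7 and Ccl12 act mainly through Ccr2, the receptor of inflammatory monocytes, and Ccl11, or eotaxin, acts through Ccr3 on eosinophils. Mouse Ccl8 acts through Ccr8. Ccl3, Ccl5, Ccl6 and Ccl9 act through Ccr1, among other receptors. In skin and fat, macrophages, fibroblasts and vessel walls are known sources of these ligands.

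The positions listed for all 10 genes matched those of the GENCODE annotation on GRCm38. The 5 genes of the MCP and eotaxin subgroup lie on the plus strand within 81.2 kb, from 82035571 to 82116799 on chromosome 11, in the order Ccl2, Ccl7, Ccl11, Ccl12 and Ccl8. The MIP subgroup begins 1409 kb further on and spans 138.9 kb, from 83525778 to 83664683, in the order Ccl5, Ccl9, Ccl6, Ccl3 and Ccl4. Within it all genes but Ccl4 are on the minus strand. Pairs of coding sequences from the same subgroup were 49.6% to 70.1% identical, with a median of 58.7%. Pairs across the subgroups had a median of 53.1%. Gaps counted against identity. Within its subgroup the pairs with Ccl2, which has 447 coding bases against 294 to 315 in the others, were at 49.6% to 51.2%. The low end of the range thus also reflects length. The closest pair was Ccl3 and Ccl4. No stretch of 50 bases of the longest transcript was shared with another gene for 9 of the 10 members, so fragments of these genes were unlikely to be split among copies. Ccl9 was the exception, with 1.99% of its stretches shared. The antisense gene Gm17268 overlaps Ccl2 and was listed at 0 in all libraries. E230016K23Rik overlaps Ccl6 on the opposite strand, and its fragments could not be told apart from those of Ccl6 if the counting ignored strand.

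RefSeq promoters on GRCm38.p6 were given for 5 members, Ccl8, Ccl12, Ccl3, Ccl6 and Ccl9. Those of Ccl8, Ccl12 and Ccl9 are shown because they held the matches found among the members. Each is the 250 bases before the gene start, 5′ to 3′, with motif matches in capitals. They lie at chr11:82114935-82115184 (plus strand), chr11:82101595-82101844 (plus strand) and chr11:83578637-83578886 (minus strand).
Ccl8: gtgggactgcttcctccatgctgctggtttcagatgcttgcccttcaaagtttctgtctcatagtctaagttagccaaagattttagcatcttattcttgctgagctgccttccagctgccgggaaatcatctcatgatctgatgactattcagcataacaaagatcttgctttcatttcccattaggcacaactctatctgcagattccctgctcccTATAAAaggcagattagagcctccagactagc
Ccl12: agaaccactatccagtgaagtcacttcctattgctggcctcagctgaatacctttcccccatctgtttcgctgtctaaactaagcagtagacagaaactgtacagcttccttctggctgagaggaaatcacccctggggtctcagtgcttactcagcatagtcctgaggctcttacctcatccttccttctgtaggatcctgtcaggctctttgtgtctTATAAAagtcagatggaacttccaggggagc
Ccl9: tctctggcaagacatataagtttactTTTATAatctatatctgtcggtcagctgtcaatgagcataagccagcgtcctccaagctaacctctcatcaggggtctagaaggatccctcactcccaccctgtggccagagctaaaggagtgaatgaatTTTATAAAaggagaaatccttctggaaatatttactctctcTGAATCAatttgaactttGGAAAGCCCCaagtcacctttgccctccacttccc
Both strands were searched. The TATA box was searched as TATAAA, the AP-1 motif as TGANTCA and the STAT motif as TTCNNNGAA, beside the kappa B motif. The TATA box began 32 bases before the start of Ccl8 and 31 bases before that of Ccl12. It was found in 12.3% of all 32544 promoters searched. In Ccl9 it was found 92 bases before the start and, on the opposite strand, at 94 and 224 bases. The 2 matches nearest to each other overlap. The Ccl9 window also held an AP-1 match, TGAATCA, at 53 bases and a kappa B match at 35 bases, motifs found in 6.73% and 7.28% of all promoters. STAT letters, found in 7.04% of all promoters, were in none of the 5 windows, and the windows of Ccl3 and Ccl6 held no match. These matches describe letters only.

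Ccl8 had the highest FPKM of the 10 genes in each library, and all 10 were lower in the anagen libraries than in the telogen library of the same age. In bulk tissue, fewer cells of a type and less RNA per cell cannot be told apart. Ccl8 had 269.6 FPKM in OTD and 87.8 in YTD, against 74.5 in OAD and 44.5 in YAD. Its share of the 10 genes' sum was 58.5% in OTD and 45.9% in YTD, against 80.6% in OAD and 68.2% in YAD. Its transcript is short, at 511 bases, against 1440 bases for Ccl6. In estimated fragments the order in OTD was therefore the other way, with about 1253 for Ccl8 and 1380 for Ccl6. Ccl11 was the next most abundant of its subgroup, with 49.3 FPKM in OTD and 17.7 in YTD, against 4.93 in OAD and 3.17 in YAD. Both genes were higher in the old than in the young library in each phase.

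The 3 ligands of Ccr2 were at intermediate levels in telogen and close to the limit of detection in anagen. Ccl7 had 28.5 FPKM in OTD and 7.85 in YTD, against 0.683 in OAD and 0.946 in YAD. Ccl2 had 15.6 in OTD and 5.95 in YTD, against 0.247 in OAD and 0.461 in YAD. Its anagen values stood for about 3.0 and 6.0 fragments. Ccl12 had 6.58 in OTD and 4.37 in YTD, against 0.391 in OAD and 0.343 in YAD, and both anagen values stood for fewer than 3 fragments, the floor used here. Of the 3 genes, only Ccl12 had overlapping counting intervals in the telogen libraries (4.59 to 9.26 in OTD and 2.70 to 6.66 in YTD).

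In the MIP subgroup, Ccl6 and Ccl9, a pair with 66.7% identical coding sequence, had the highest levels in each library. Ccl6 had 63.2 FPKM in OTD and 43.0 in YTD, against 8.48 in OAD and 11.8 in YAD. Ccl9 had 19.6 in OTD and 14.7 in YTD, against 1.71 in OAD and 3.47 in YAD. For both genes the old library was higher in telogen and lower in anagen. Ccl5, a product of T cells among others, had 5.71 in OTD and 7.88 in YTD, against 1.07 in OAD and 0.547 in YAD. It was the only member lower in OTD than in YTD, and its counting intervals overlapped. Ccl4 had 1.45 FPKM in OTD, 1.03 in YTD and 0.276 in OAD, and Ccl3 had 1.22, 0.817 and 0.0941. Both were listed at 0 in YAD, where the floor of 3 fragments stood at 0.319 FPKM for Ccl4 and 0.252 for Ccl3 and the counting intervals reached 0.392 and 0.310. Each stood for at most about 11.4 fragments in any library.

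The order of the genes changed between libraries more among the lower genes than at the top. Ccl8 was followed by Ccl6 in all 4 libraries, with no overlap of the counting intervals. Ccl11 came next in OTD, YTD and OAD, and Ccl9 in YAD. The intervals of these 2 genes overlapped in YTD (15.5 to 19.9 for Ccl11 and 13.6 to 15.8 for Ccl9) and in YAD (2.41 to 4.05 and 3.03 to 3.95). In OTD, Ccl7 ranked above Ccl9, and Ccl2 above Ccl12 and Ccl5. In YTD, Ccl5, Ccl7, Ccl2 and Ccl12 followed Ccl9, and the intervals of neighbours in that order overlapped. In OAD the intervals of neighbours overlapped from Ccl9 (1.39 to 2.07) downwards, and in YAD from Ccl7 (0.487 to 1.65) downwards.

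**Figure D1:**
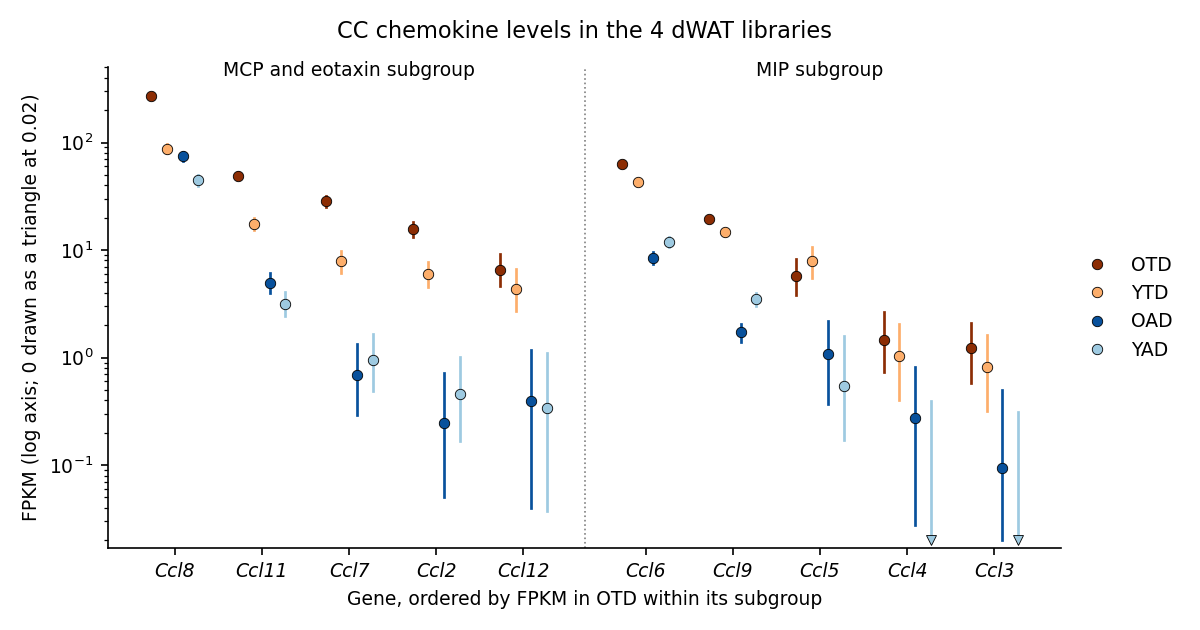
FPKM (log axis) of the 10 genes in OTD, YTD, OAD and YAD, with bars for the 95% counting interval and triangles for the values of 0. Ccl8 was at the top in each library (44.5 to 269.6), and the anagen points of all 10 genes lie below the telogen points.

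The first comparison was that of old and young dWAT in telogen. By their values, Ccl2, Ccl7, Ccl8 and Ccl11 stood further above YTD in OTD than Ccl12 and the MIP genes did. Differences between libraries are on the scale of log2(FPKM + 1), here OTD minus YTD, and a gene was counted as higher or lower past the threshold when this was at least 1 in size. All 5 genes of the MCP and eotaxin subgroup were higher in OTD, with differences from 0.50 to 1.74 and a median of 1.43, and 4 of the 5 rose past the threshold. Of all 17230 genes with a value above 0 in either library, 1.67% rose past it, and their median difference was -0.03. In the MIP subgroup 4 of 5 genes were higher and Ccl5 was lower, the median being 0.29, and 0 of the 5 passed the threshold in either direction. Ccl6, the highest of them at 0.54, was close to Ccl12 of the other subgroup at 0.50.

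Ccl7 showed the largest difference, 1.74, which placed it at rank 41 of the 17230 genes. Its FPKM ratio was 3.63, or 1.86 on the log2 scale, with a counting interval of 1.49 to 2.25. Ccl8 (difference 1.61, rank 59) had a log2 ratio of 1.62, with an interval of 1.45 to 1.79. The differences were 1.43 for Ccl11 (rank 92) and 1.26 for Ccl2 (rank 139), with log2 ratios of 1.48 (1.28 to 1.69) and 1.39 (0.95 to 1.86). The intervals of these 4 genes overlapped each other. Ccl12, which lies between Ccl11 and Ccl8, had a difference of 0.50 and a log2 ratio of 0.59, and its interval of -0.22 to 1.46 included 0, overlapped those of Ccl2, Ccl8 and Ccl11 and did not reach that of Ccl7. The number of genes past the threshold was 2 of the 5, Ccl7 and Ccl8, when the threshold was 1.5.

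Ccl6 had a difference of 0.54 and a log2 ratio of 0.55 (0.43 to 0.68), and Ccl9 a difference of 0.39 and a log2 ratio of 0.41 (0.27 to 0.56). Both intervals lay above 0 and below those of Ccl2, Ccl7, Ccl8 and Ccl11. Ccl5 differed by -0.40, with a log2 ratio of -0.47 (-1.20 to 0.30). For Ccl3 and Ccl4 the differences were 0.29 and 0.27, and the intervals ran from -0.94 to 2.17 for each, so that no difference from the other members was detectable at this depth. Summed over its 5 genes, the MCP and eotaxin subgroup had 369.5 FPKM in OTD and 123.6 in YTD, a ratio of 2.99. Without Ccl8 the sums were 99.9 and 35.8. The MIP subgroup summed to 91.1 FPKM in OTD and 67.5 in YTD, a ratio of 1.35. The first sum was 4.06 times the second in OTD and 1.83 times in YTD.

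The second comparison, of old and young dWAT in anagen, found no member past the threshold, against 1.18% of 17613 genes that passed it in either direction. Ccl2, Ccl7, Ccl12, Ccl3 and Ccl4 were below 1 FPKM in both anagen libraries, so they could not pass it on this scale. For these genes the count says nothing about a difference between the ages. In each subgroup 3 genes were higher and 2 lower in OAD, with medians of 0.05 and 0.13, beside a median of 0 over all genes. Ccl8 had the highest difference, 0.73 (rank 291) and a log2 ratio of 0.74 (0.52 to 0.97). Ccl11 followed with 0.51 and a log2 ratio of 0.64 (0.16 to 1.14). Both intervals lay above 0 and below the telogen interval of the same gene. Ccl9 differed by -0.72, with a log2 ratio of -1.02 (-1.37 to -0.68), and Ccl6 by -0.44, with a log2 ratio of -0.48 (-0.73 to -0.23). These intervals lay below 0, on the other side from telogen.

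For the other 6 genes the anagen counts were too few to settle a direction. Ccl7 differed by -0.21 and Ccl2 by -0.23, and their log2 ratio intervals ran from -1.98 to 0.93 and from -3.53 to 1.33. The interval of Ccl7 did not reach its telogen interval, and that of Ccl2 did. Ccl5 differed by 0.42, with an interval of -1.39 to 2.95. Ccl12, Ccl3 and Ccl4 were under the floor of 3 fragments in both anagen libraries, and no fold is given for them. Summed FPKM of the MCP and eotaxin subgroup was 80.7 in OAD and 49.4 in YAD, a ratio of 1.63, and Ccl8 made up most of it. Without Ccl8 the sums were 6.25 and 4.92. The MIP subgroup summed to 11.6 FPKM in OAD and 15.8 in YAD, so YAD was 1.36 times OAD.

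**Figure D2:**
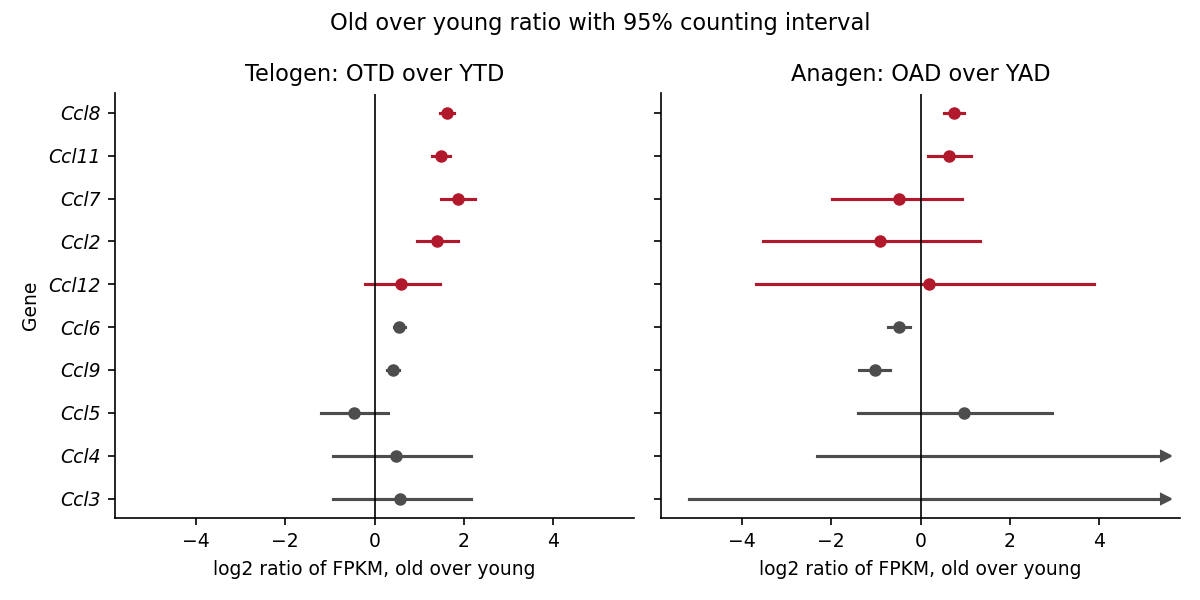
Log2 ratio of FPKM, old over young, in telogen (left) and anagen (right), with the 95% counting interval as a bar, red for the MCP and eotaxin subgroup and grey for the MIP subgroup; an arrow marks a bar without an upper end. In telogen the bars of Ccl8, Ccl11, Ccl7 and Ccl2 lie to the right of those of Ccl6 and Ccl9 (0.27 to 0.68), and in anagen the bars of Ccl6 and Ccl9 lie left of 0.

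The last 2 comparisons set anagen against telogen at each age. Every member was lower in anagen in both. On the scale used here, the difference was larger in old than in young dWAT for 8 of the 10 genes, Ccl4 and Ccl5 excepted. For Ccl3 this order depended on the constant added to FPKM (the pseudocount). With a pseudocount of 0.1 its differences were -3.20 in young and -2.77 in old dWAT. With 0.01 they were -6.37 and -3.56, so the order of the ages was not settled for this gene. In young dWAT 8 of the 10 genes fell past the threshold, against 16.7% of 17622 genes. In old dWAT 9 of 10 did so, against 15.6% of 17712 genes. The medians were -2.16 and -3.08 for the MCP and eotaxin subgroup and -1.78 and -1.70 for the MIP subgroup, in young and old dWAT, beside medians of 0.02 and 0.01 over all genes. The age and phase comparisons share libraries, so their values are not independent.

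Ccl7 differed by -2.18 in young and -4.13 in old dWAT, and in old dWAT only 5 genes of all fell further. Its log2 ratios were -3.05 (-4.08 to -2.17) and -5.38 (-6.63 to -4.41). Ccl2 fell from 5.95 to 0.461 FPKM in young dWAT and from 15.6 to 0.247 in old dWAT, log2 ratios of -3.69 (-5.19 to -2.47) and -5.98 (-8.28 to -4.41). Ccl11 differed by -2.16 in young and -3.08 in old dWAT, and its log2 ratio intervals did not overlap (-2.91 to -2.07 and -3.66 to -3.0). Ccl12 differed by -2.0 and -2.45, with log2 ratio intervals of -6.97 to -1.80 and -7.44 to -2.37. Ccl8 had the smallest difference of its subgroup, -0.97 in young dWAT, short of the threshold, and -1.84 in old dWAT.

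In the MIP subgroup, Ccl6 differed by -1.78 in young and -2.76 in old dWAT, and Ccl9 by -1.81 and -2.92. The log2 ratio intervals of the 2 ages did not overlap for either gene (-2.05 to -1.68 and -3.11 to -2.69 for Ccl6, -2.31 to -1.86 and -3.83 to -3.23 for Ccl9). Ccl5 differed by -2.52 in young and -1.70 in old dWAT, with overlapping log2 ratio intervals (-5.60 to -2.17 and -4.08 to -1.23). Ccl4 differed by -1.02 and -0.94. Ccl3 differed by -0.86 and -1.02. Both genes were listed at 0 in YAD and stood for about 7.2 fragments each in YTD, so the log2 ratio in young dWAT has no lower end, and its counting interval ended at -0.96 for each. The part of the share of mitochondrial, muscle and hair follicle keratin transcripts in these falls was not tested. Values were also rescaled to TPM, FPKM set to the same total in each library. This moved the median of genes at 1 FPKM or more by 0.73 in young and 0.53 in old dWAT. All 10 members were still lower in anagen, 6 of them past the threshold in young and 8 in old dWAT. Ccl8 in young dWAT then differed by only -0.13, against -0.97 as deposited, so the size of its fall there depended on the scaling.

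The genes listed between Ccl2 and Ccl4 on the chromosome were compared in telogen. Of 27 other genes there with a value above 0 in OTD or YTD, 0 passed the threshold in either direction, beside 3.6% of all genes. Their differences ran from -0.57 to 0.89, with a median of 0.03. Ccl1, Tmem132e, Cct6b, Fndc8, Slfn9, Slfn14, Rasl10b and Heatr9 were below 1 FPKM in both libraries and could not pass. At that share few of 27 genes would pass, so the count says little about the stretch. Ccl1, which starts 141.1 kb from the start of Ccl2, was listed at 0.271 FPKM in YTD and at 0 in the other libraries. Near the MIP subgroup, Taf15, which encodes an RNA-binding protein, had 15.5 FPKM in OTD and 20.5 in YTD. The 4 genes past the threshold, all of them members, started within the first 79.6 kb of this stretch.

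**Figure D3:**
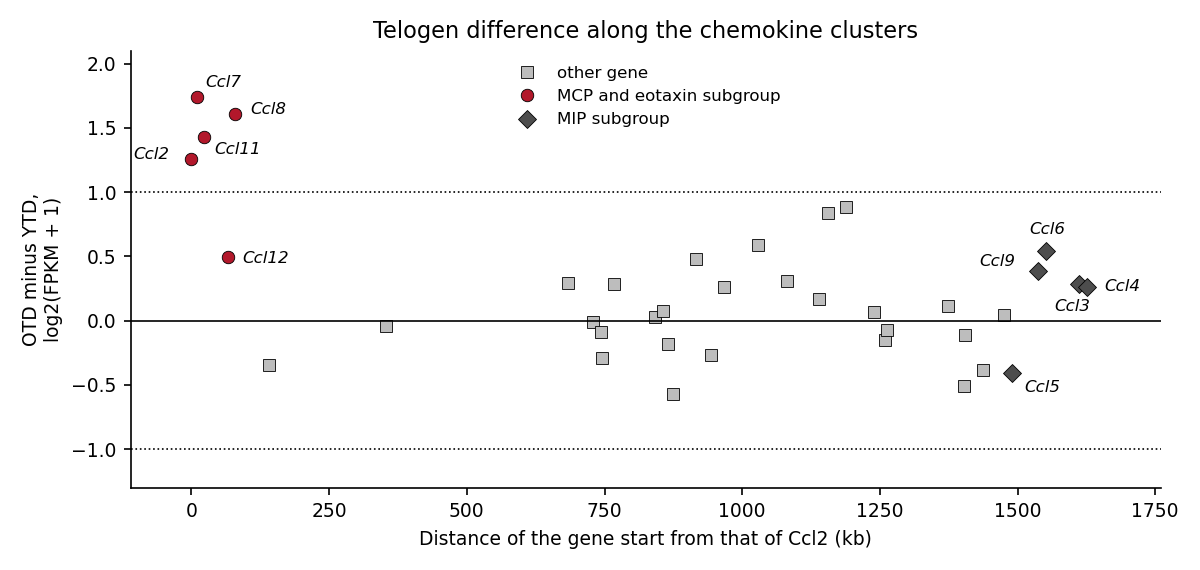
Telogen difference (OTD minus YTD, log2(FPKM + 1)) of each listed gene above 0 in telogen, by the distance of its start from that of Ccl2 in kb, with dotted lines at the threshold of 1. Ccl2, Ccl7, Ccl11 and Ccl8 lie above the line (1.26 to 1.74), and the 27 other genes (grey squares) lie between -0.57 and 0.89.

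Of 14 receptor genes for CC chemokines, 13 were above 0 in telogen, with 10 higher in OTD and a median difference of 0.24. Of these, 0 passed the threshold, beside 3.6% of all genes in either direction. Ccr3, Ccr4, Ccr7, Ccr8, Ccr9, Ccr10 and Ackr2 were below 1 FPKM in both telogen libraries and could not pass it. Ccr2 had 8.74 FPKM in OTD and 6.18 in YTD, against 0.305 in OAD and 0.80 in YAD, and it fell past the threshold in anagen at both ages (-2.0 and -2.90). Ackr1, an atypical receptor of venous endothelium that binds chemokines without signalling, was the highest of the list, with 46.8, 37.5, 12.3 and 8.24 FPKM in the same order. Ccrl2, another atypical receptor, had 6.67, 4.25, 0.724 and 0.676, and both fell past the threshold in anagen at each age. Ccr4 went the other way, with 0.0256 and 0.0783 in OTD and YTD and 1.68 and 1.3 in OAD and YAD. The eotaxin receptor Ccr3 had 0.0256 FPKM in YTD and was listed at 0 elsewhere, and Ccr8 had 0.0724 in OTD and was listed at 0 elsewhere. In anagen 0 of 11 receptor genes passed the threshold between ages, beside 1.18% of all genes, with 4 higher and 7 lower in OAD. Apart from Ccr4, Ccr10, Ackr1 and Ackr4 they were below 1 FPKM in both anagen libraries and could not pass it.

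Of 11 other CC ligands, 9 were above 0 in telogen, of which 1 rose and 1 fell past the threshold in OTD, with a median of 0.07. Ccl21a, which guides dendritic cells and lymphocytes into lymph vessels and nodes, had 52.3 FPKM in OTD and 16.0 in YTD, against 3.95 in OAD and 2.85 in YAD. Ccl25 had 1.26 in OTD and 5.42 in YTD, against 3.95 in OAD and 2.49 in YAD, a telogen difference of -1.5, and it rose past the threshold from OTD to OAD (1.13). Ccl27a, a chemokine of keratinocytes, was higher in YTD (24.1) than in OTD (15.7), with 24.3 in OAD and 19.6 in YAD. Ccl21a and Ccl27a have near-identical copies in the mouse genome, so their values are uncertain. Ccl24, a further eotaxin, had 3.51 and 3.30 FPKM in OTD and YTD and 0.349 and 0.376 in OAD and YAD. Ccl17 had 2.58 and 2.05 in OTD and YTD and 0.170 in YAD, and was listed at 0 in OAD. Both of these fell past the threshold in anagen at each age. In anagen 0 of 9 other ligands passed the threshold between ages, beside 1.18% of all genes. Apart from Ccl21a, Ccl25 and Ccl27a they were below 1 FPKM in both anagen libraries and could not pass it.

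Among 9 cytokines known to induce CC chemokines, 6 were above 0 in telogen. Of these, 2 rose past the threshold in OTD, Il33 and Il1b, beside 1.67% of all genes. Il33, an alarm signal released by damaged stromal cells, had 9.37 FPKM in OTD and 3.01 in YTD, against 0.739 in OAD and 0.488 in YAD. Il1b had 3.37 in OTD and 0.739 in YTD, against 0.281 in OAD and 0.223 in YAD. Both genes thus had their highest value in OTD, as did all members of the MCP and eotaxin subgroup and all MIP genes but Ccl5. Il1a went the other way between phases, with 0.515 and 0.0372 in OTD and YTD and 2.17 and 1.81 in OAD and YAD. Tnf was lower in OTD (0.358) than in YTD (0.702), with 0.682 in OAD and 1.14 in YAD. In telogen 5 genes of the list were higher in OTD and 1, Tnf, was lower, with a median of 0.51. In anagen 0 of 6 cytokine genes passed the threshold between ages, beside 1.18% of all genes. Apart from Il1a and Tnf they were below 1 FPKM in both anagen libraries and could not pass it.

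Marker lists of the cells that could make or answer these chemokines were set beside the subgroups. The 2 genes named with a list had the highest mean FPKM over the 4 libraries, which need not make them the highest in each. Of 13 macrophage markers, 10 were higher and 3 lower in OTD and 1, Cd68, rose past the threshold, and the sum was 390.9 FPKM in OTD and 307.7 in YTD, against 73.5 in OAD and 99.7 in YAD, with C1qb and C1qa on top. In anagen 12 of the 13 were lower in OAD, with Lyve1 past the threshold. The 7 monocyte markers, with Plac8 and F13a1 on top, summed to 158.7, 82.8, 11.4 and 8.27, and 1 of them, Plac8, rose past the threshold in OTD and in OAD. Of the 9 eosinophil markers, Epx, Prg3, Ear1 and Ear6 were listed at 0 in all libraries and Siglecf had 0.230 FPKM in OTD and 0 elsewhere. The sum of that list, 16.9, 15, 1.15 and 2.52, was mostly Ear2, a gene macrophages also express, followed by Prg2. The 10 T and NK cell markers, with Gzma and Nkg7 on top in the mean, summed to 2.88, 2.90, 0.429 and 0.219. Each was below 1 FPKM in every library, so it could not pass the threshold.

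Within each library the subgroup sums were also expressed as a percentage of the summed macrophage markers, a quantity that does not depend on the scaling between libraries. The MIP subgroup stood at 23.3% in OTD and 21.9% in YTD, and at 15.8% in OAD and 15.9% in YAD. The MCP and eotaxin subgroup stood at 94.5% in OTD and 40.2% in YTD, against 109.9% in OAD and 49.6% in YAD. The old library was thus above the young one for the latter subgroup in both phases, and for the MIP subgroup it was above it in telogen and below it in anagen by little. Without Ccl8 the MCP and eotaxin subgroup stood at 25.6%, 11.6%, 8.51% and 4.94% in the same order. Against the summed monocyte markers the order was another, with 232.8%, 149.3%, 708.9% and 597.3% for the MCP and eotaxin subgroup and 57.4%, 81.5%, 102.1% and 191.5% for the MIP subgroup. Plac8 alone held 117.6 of the 158.7 FPKM of the monocyte list in OTD and 47.7 of 82.8 in YTD. The telogen percentages therefore mostly follow that gene, while the monocyte marker Ly6c2 was lower in OTD (8.13) than in YTD (10.1). Single macrophage markers differed among themselves in telogen, from -0.39 for Lyve1 and Cd163 to 1.20 for Cd68.

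Markers of other cells moved with the telogen comparison as well. The 16 immediate early genes, whose transcription responds to a stimulus within minutes, were all higher in OTD, 14 of them past the threshold, with a median of 1.56. Junb and Jun had the highest means, while in OTD Dusp1 (147.5), Nr4a1 (138.0) and Fos (131.1) stood above both. The sum was 1160 FPKM in OTD and 354.4 in YTD, against 753.7 in OAD and 598.7 in YAD. In anagen 2 of the 16, Fos and Atf3, rose past the threshold. The sum was higher in both anagen libraries than in YTD and lower than in OTD. Its genes were split between the phases. From telogen to anagen 9 were higher and 7 lower in young dWAT, and 5 were higher and 11 lower in old dWAT. The part of the immediate early genes in the telogen result was not tested. The endothelial list (8 genes, Pecam1 and Cldn5 on top) summed to 412.2 in OTD and 247.4 in YTD, with 8 of 8 genes higher and 1 past the threshold. The fibroblast list (9 genes, Dcn and Dpt on top) summed to 1434 and 980 FPKM, with 2 genes past the threshold, and in anagen to 215.4 in OAD and 370.5 in YAD. The mast cell list (8 genes, Mcpt4 and Tpsb2 on top in the mean) summed to 102.8 and 69.4 FPKM in OTD and YTD and to 24.3 and 32.0 in OAD and YAD, with 1 gene past the threshold in telogen. In anagen Kit was its highest gene, with 9.74 FPKM in OAD and 11.6 in YAD, against 1.06 in OTD and 1.02 in YTD.

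The neutrophil list (10 genes, S100a8 and S100a9 on top) summed to 138.7 FPKM in OTD and 118.7 in YTD, against 142.0 in OAD and 59.4 in YAD, with 2 genes higher and 1 lower past the threshold in telogen. S100a8 alone had 123.4, 113.8, 129.0 and 56.7 FPKM in the same order, so the sum is mostly that of 1 gene. Mpo was listed at 0 in all libraries, and Ly6g in all but OAD (0.0777). The adipocyte list summed to 4485 in OTD and 3317 in YTD, against 1678 in OAD and 1248 in YAD, and 0 of its 10 genes passed the threshold between ages in either phase. Summed markers of bordering tissues were lower in OTD than in YTD. The sums were 52.3 and 78.5 FPKM for 7 epidermal genes (Krt5 and Krt14 on top in the mean). They were 207.8 and 381.7 for 10 hair follicle keratins (Krt71 and Krt27 on top in the mean). For 10 skeletal muscle genes (Acta1 and Ckm on top in the mean) they were 58062 and 91430. Past the threshold fell 1, 5 and 1 of them. In anagen these lists summed to 1371 and 932 FPKM for epidermis, 19881 and 16951 for hair follicle keratins and 13885 and 10506 for muscle, in OAD and YAD. The part of any of these lists in the chemokine differences was not tested.

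**Figure D4:**
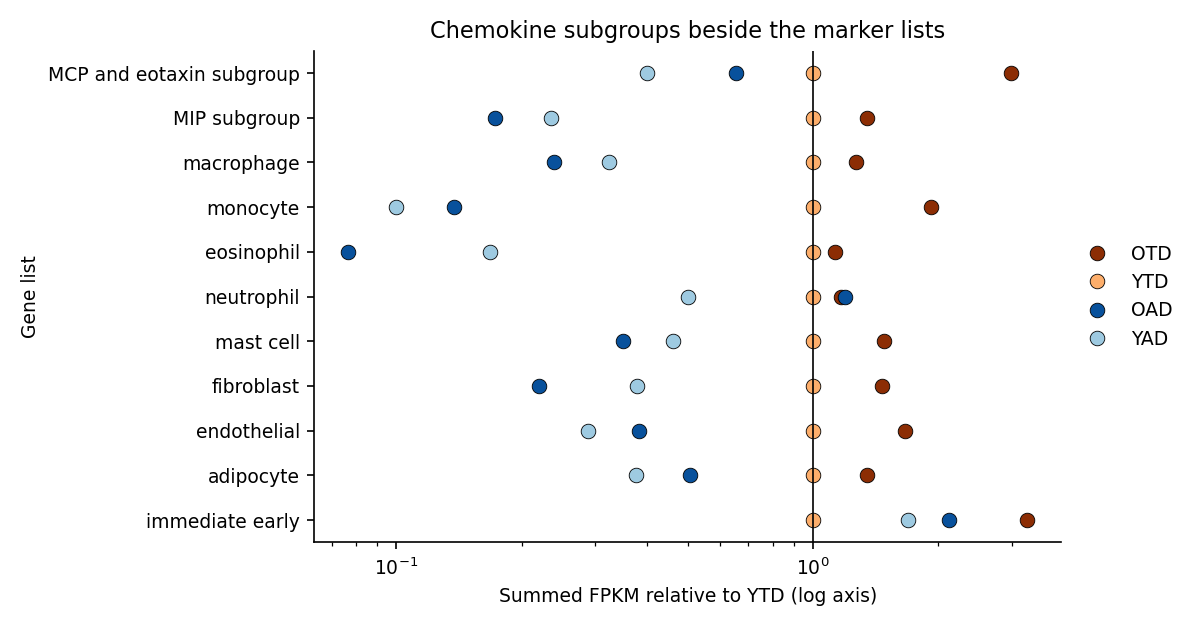
Summed FPKM of each chemokine subgroup and of 9 marker lists, relative to YTD (log axis), in the 4 libraries. The MCP and eotaxin subgroup lies at 2.99 in OTD, beside 1.27 for the macrophage and 3.27 for the immediate early list, and both subgroups lie below 1 in anagen.

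The genes most like each subgroup over the 4 libraries were found by the distance between centred log2(FPKM + 1) profiles, among 10453 other genes that reached 5 FPKM in some library. For the MCP and eotaxin subgroup they included Lrrn4cl (distance 0.08), Fgl2 (0.14), Hcst (0.25) and Ecscr (0.28). Lrrn4cl had 23.8 FPKM in OTD and 9.66 in YTD, against 2.18 in OAD and 1.86 in YAD. Fgl2, a fibrinogen-like protein of macrophages and T cells, had 57.9, 25.7, 6.40 and 6.12. Hcst, a signalling adaptor of leukocytes, had 11.1, 4.89, 0.724 and 0.296, and Ecscr, a membrane protein of endothelium, had 46.7, 23.1, 6.43 and 4.82. The members themselves lay at distances of 0.29 for Ccl11 to 1.17 for Ccl8 from their own mean profile, so each of these 4 genes was nearer to it than any member. For the MIP subgroup the nearest were Fut8 (0.03), Gbp7 (0.05), Crem (0.05), Ace (0.05) and Uchl1 (0.08). Fut8, which adds fucose to glycoproteins, had 13.1, 11.2, 2.79 and 2.93 FPKM, and Ace, the angiotensin-converting enzyme, had 43.1, 35.4, 11 and 11.6. Gbp7, an interferon-induced GTPase, had 6.53, 5.22, 1.06 and 1.11, Crem, a transcription factor of cyclic AMP signalling, had 16.8, 14.6, 3.83 and 3.92, and Uchl1, a ubiquitin hydrolase, had 5.75, 5.02, 0.953 and 1.06. The MIP members lay at 0.64 to 0.80. Over 4 libraries this likeness is a description only.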

How the data were processed

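The 4 groups of dWAT have 1 RNA sequencing library each, and groups were taken from the sample titles. As deposited by the authors, the values are FPKM of 22913 genes, with positions on GRCm38. The submitters' processing notes name bcl2fastq, TopHat2 and GRCm38 without versions. The tool that made the FPKM, its annotation and any scaling between libraries are not given in the sources used here. The study's methods state an RNA integrity number above a minimum. FPKM were used as deposited.

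Symbols were matched for 21750 of 22166 Ensembl identifiers. The listed gene length is that of the coding sequence (97.0% multiples of 3, and equal to the longest open reading frame for all 10 members), but FPKM times the transcript length less 260 bases gathered at whole fragments over 4399 genes with 1 transcript, so depth was estimated on that length. Of the values worth 0.5 to 2.5 fragments, 53.5% to 73.8% lay within 0.15 of a whole number, where an even spread would give 30%. Depths are therefore rough. The floor was 3 fragments, and intervals are exact Poisson (levels) or exact binomial (ratios) at 95%, for counting error only.

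Differences are of log2(FPKM + 1), a scale that understates changes at low FPKM, and a gene was counted when its difference was 1 or more in size. No test was made, since no group has replicates. The members and gene lists were chosen with earlier results of these data known. The genes named are all 10 members, genes of the receptor, ligand and cytokine lists at 5 FPKM or more in a library or past the threshold above the floor, the defining and the 2 most abundant genes of the marker lists, and the 5 genes nearest to each subgroup's mean profile, except that some genes are not reported here. Other genes, such as Ccr3, Ccr8, Tnf and the neighbours on the chromosome, were named after their values were seen. Of the listed markers, 2 had no matching symbol. Identity is from global alignment of coding sequences of GENCODE M21. The steps were tested on simulated data. Alternatives were pseudocounts of 0.1 and 0.01, a threshold of 1.5, and only genes at 1 FPKM or more. Further alternatives were rescaling to TPM or by the median of ratios over 11181 genes. Mitochondrially encoded genes were also left out, alone or with muscle and hair follicle keratin genes. The median of ratios factors ran from 0.97 to 1.01, so that scaling left the deposited values nearly as they were and could change little. Python 3.11.15, numpy 2.4.6, pandas 2.3.3, scipy 1.17.1, Biopython 1.88 and matplotlib 3.10.9 were used.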

Additional observations from a re-analysis of the deposited data

Results flagged for a closer look

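For 5 members the old library lay above the young one in one phase and below it in the other. The telogen difference less the anagen difference, on log2(FPKM + 1), was 1.48 for Ccl2, 1.95 for Ccl7, 0.98 for Ccl6, 1.11 for Ccl9 and -0.82 for Ccl5, the only one higher in the old library in anagen alone. With 1 library per group the difference between the phases was not tested. For Ccl6 and Ccl9 the counting intervals of the old over young ratio lay on opposite sides of 0 in the 2 phases. For Ccl2, Ccl7 and Ccl5 the anagen interval included 0.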

How the results depend on the processing

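The counts of members past the threshold were recomputed under 8 alternative settings, the values of single members under the 6 or 7 that apply to them and the subgroup sums under 4 scalings, and none of these changed the direction of a difference past the threshold. The telogen and both anagen against telogen directions held for all 10 members under each scaling and pseudocount run, and in the age comparison of anagen Ccl12 alone changed sign. The threshold of 1.5 left 2 of the 4 members past it in telogen, and pseudocounts of 0.1 and 0.01 put 1 (Ccl4) and 3 (Ccl3, Ccl4 and Ccl9) members past it between ages in anagen. Ccl3 and Ccl4 were under the floor there, and Ccl9 was not, with about 103.3 fragments in OAD and 224.3 in YAD. The log2 ratios of the summed FPKM of the MCP and eotaxin and the MIP subgroups are given in that order. As deposited they were 1.58 and 0.43 (OTD over YTD), 0.71 and -0.45 (OAD over YAD), -1.32 and -2.09 (YAD over YTD) and -2.19 and -2.97 (OAD over OTD). Rescaled to TPM they were 0.48 and -0.68 for OAD over YAD, -0.48 and -1.25 for YAD over YTD and -1.58 and -2.35 for OAD over OTD. Without mitochondrially encoded genes they were 1.80 and 0.65 for OTD over YTD, -1.11 and -1.88 for YAD over YTD and -2.37 and -3.14 for OAD over OTD. Without muscle and hair follicle keratin genes as well they were 1.74 and 0.60 for OTD over YTD and -2.44 and -3.22 for OAD over OTD. These shifts are those of the scaling, which moves all genes alike. Of the values of single members, 260 stayed on their side of the threshold, 10 passed it and 4 no longer did, of Ccl3, Ccl4, Ccl6 and Ccl9 alone. No replicate could be left out, as each group has 1 library. No paired analysis was possible because the groups hold 1 library each. Depth limits Ccl2, Ccl12, Ccl3 and Ccl4 in anagen, with at most 6.0 estimated fragments each. It also limits Ccl5 (6.4 in OAD and 3.5 in YAD) and Ccl7 (8.1 in OAD and 12 in YAD).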
